A study of Caenorhabditis elegans with 12 samples.

Results

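The *col* genes of *Caenorhabditis elegans* are the numbered collagen genes, most of which encode collagens of the cuticle. They were taken as every probe set whose symbol is *col-* followed by a number in both expression tables, which gave 154 probe sets for 138 genes among 21541 probe sets for 17675 genes. No measured value entered this choice. RNA of embryos and of germlines dissected from adults was profiled on Affymetrix *C. elegans* genome arrays, 12 in all, 3 of each genotype and tissue. LIN-54 is a DNA-binding subunit of the DRM complex, the worm form of the DREAM complex of E2F and retinoblastoma-like proteins, and the comparison asked which genes change when it is impaired or lost. The embryos were wild-type and *lin-54(n2990)*, a missense allele, collected from young adults grown at 25°C. The germlines were wild-type and *lin-54(n3423)*, a deletion allele, dissected 24 hours after the L4 stage from animals grown at 20°C and cut to run from the mitotic tip to late pachytene. All strains had the N2 background. Embryo RNA was labeled directly, whereas germline RNA was linearly amplified first and labeled with another kit, so tissue, allele, temperature and labeling cannot be told apart. The ages of the embryos in a pellet are not given in the sources used here. In bulk samples such as these, fewer epidermal cells and less collagen RNA per cell cannot be told apart.

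The cuticle is an extracellular coat secreted by the epidermis (hypodermis). It is made once at the end of embryogenesis and again at each molt, and its collagens are transcribed in waves that precede each cuticle. The chains carry Gly-X-Y repeats, are hydroxylated and folded in the endoplasmic reticulum, are cleaved by proteases on their way out and are then cross-linked through tyrosines. Germ cells make no cuticle. The genes form large families of similar sequence, and many arose as tandem copies.

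The values are log2 RMA values (background-corrected, quantile-normalized summaries of each probe set, made separately for each tissue), so that 1 unit is a doubling of signal. Each probe set and array also has a detection call of present, marginal or absent. Mutant arrays were compared with wild-type arrays by limma. A call required a fold change of 1.5 or more together with an unadjusted p that did not exceed 0.01, and adjusted p-values (Benjamini-Hochberg, all 21541 probe sets) stand beside the calls. With 3 arrays in each group, the smallest p of an exact permutation test (two-sided) is 0.1. Over all probe sets, arrays with the same replicate number deviated together in both tissues. The fit with the replicate number as a block is therefore given wherever it changes a call. The sources used here do not state such a pairing, so the block is an assumption drawn from the same data. The germline values of the *col* probe sets with a present call did not follow these numbers, as described below. The *lin-54* probe set fell in the germlines, where its wild-type values of 9.68, 11.01 and 11.02 stood against 8.88, 8.14 and 8.18 in the mutant (log2 change −2.17, standard error 0.43). In embryos it was present on all 6 arrays with a log2 change of 0.42. Between 10826 and 11985 probe sets were present on an embryo array and between 5954 and 8209 on a germline array.

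The family lies on all chromosomes, with 41 probe sets on chromosome IV, 32 on V, 26 on II, 23 on X, 19 on I and 13 on III. By RefSeq gene order (WBcel235 assembly, used for names and order only), 14 pairs of members are direct neighbors, such as *col-92* and *col-93*, *col-144* and *col-145*, and *col-12* and *col-13*. Probe sets of similar genes share probes. The array names 37 of the 154 probe sets with the suffix _x_at, for probes that can also bind other transcripts, 37 with _s_at, for probes shared by transcripts of the same gene or close relatives, and 80 with neither. The _x_at probe sets had a median wild-type embryo value of 10.56, compared with 6.95 for the probe sets without a suffix and 6.65 for the _s_at probe sets. High values of _x_at probe sets can therefore hold the signal of several collagens. For *col-119*, the _x_at probe set had a mean of 11.35 in wild-type embryos and was present on 3 of 3 arrays, while its _s_at probe set had a mean of 5.87 and was present on 0. Among the 15 genes with several probe sets, the sign of the embryo change differed between probe sets for 1, *col-72*, which was present on no array.

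In wild-type embryos, most *col* genes were not counted as detected. For those that were, the mean of the gene's highest probe set ran from 6.28 (*col-141*) to 13.23 (*col-43*). A gene was counted as detected when its calls, scored 1 for present, 0 for marginal and −1 for absent, summed over the 3 arrays and averaged over its probe sets, came to more than 1.5. By this score 30 of 138 *col* genes (21.7%) were detected in wild-type embryos, compared with 47.5% of all genes. In wild-type germlines 13 (9.42%) were detected, compared with 25.0% of all genes. Of all 138 genes, 6 were detected in both tissues (*col-12*, *col-13*, *col-64*, *col-92*, *col-93* and *col-154*), 24 in embryos only, 7 in germlines only (*col-20*, *col-73*, *col-101*, *col-106*, *col-119*, *col-160* and *col-178*) and 101 in neither. These classes follow the threshold and do not mean that signal was absent from the other tissue. *col-20*, *col-73*, *col-119* and *col-160* had present calls in wild-type embryos, with embryo scores of 1, 1, 0 and 1. Likewise *col-117* and *col-125*, in the class of embryos only, had germline scores of 1. At the level of probe sets, 35 had a present call in embryos only, 17 in germlines only, 33 in both and 69 on none of the 12 arrays. *col-19*, a collagen known for its adult-specific expression, was present on 0 of 6 embryo arrays and on 4 of 6 germline arrays, with wild-type germline values of 4.38, 4.80 and 6.31.

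**Figure D1:**
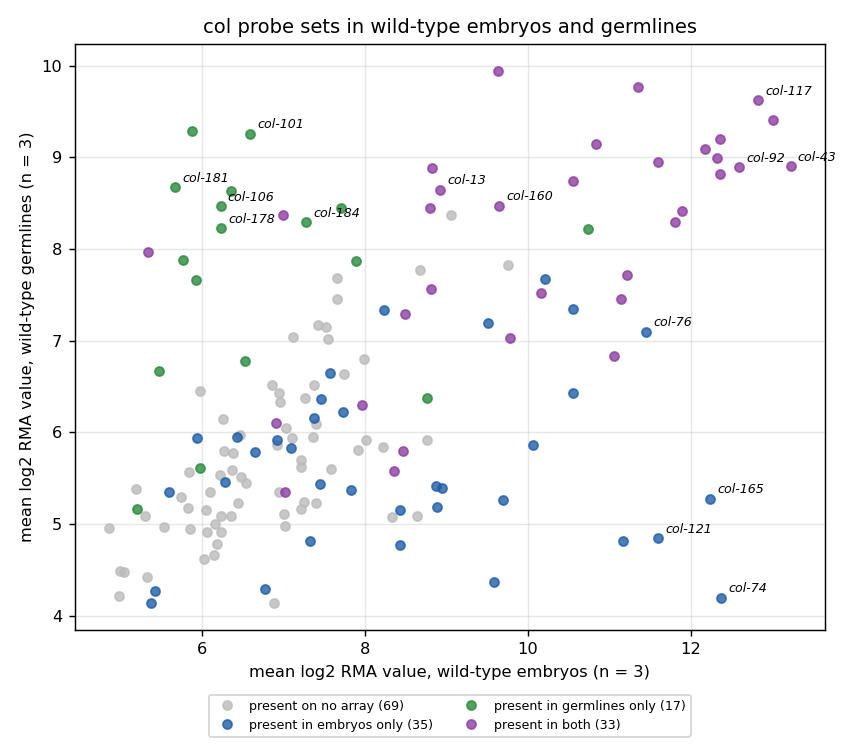
Mean log2 RMA value of each of the 154 *col* probe sets in wild-type embryos (horizontal axis) and wild-type germlines (vertical axis), n = 3 arrays each, colored by where the probe set had at least 1 present call; a label marks the probe set of that gene with the highest embryo value. *col-74*, *col-165* and *col-121* lie at the lower right, above 11 in embryos and below 6 in germlines, and *col-181*, *col-106* and *col-178* at the upper left, below 7 in embryos and above 8 in germlines.

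The highest wild-type embryo values belonged to *col-43*, *col-125*, *col-117*, *col-92*, *col-74* and *col-93*. *col-43* measured 13.35, 13.02 and 13.31 on wild-type arrays 1 to 3, and *col-125* measured 13.05, 12.36 and 13.62. Of these 6 probe sets 5 are of the _x_at kind, and *col-74* (185993_at) has neither suffix. Of the 500 highest wild-type embryo means on the array, 10 belonged to *col* probe sets. *col-74* measured 12.47, 11.85 and 12.80 in wild-type embryos, whereas in wild-type germlines its mean was 4.20 and it was present on no array. The tissues were normalized apart, so these levels are set side by side without a test.

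In *lin-54(n2990)* embryos, *col* genes were lower than in wild-type almost across the family. Of 154 probe sets, 144 (93.5%) had a lower mean in the mutant, against 49.3% of all probe sets, and their median log2 change was −0.29, against 0.0038 over all. The 68 probe sets (58 genes, 44.2% of the members' probe sets, against 62.6% of all) present on at least 1 of the 6 arrays had a median log2 change of −1.03, and 65 of them were lower, against 46.2% of all probe sets with a present call; since a call in either genotype admits a probe set, this is a description. Present on all 6 arrays were 15, against 43.7% of all probe sets, and each of the 15 was lower, against 39.1% of all such probe sets, with a median of −1.09. *col-74* had the lowest log2 change of all 21541 probe sets, *col-165* the fifth lowest, and 15 *col* probe sets stood among the 100 lowest.

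The mutant arrays lay below all wild-type arrays for 84 probe sets (54.5%, against 17.6% of all) and above them for 2 (1.30%, against 15.2%). Within the pairs of same-numbered arrays, 117 probe sets (76.0%) were lower in all 3 pairs, against 27.6% of all, and 3 were higher in all 3, against 27.2%. With each of the 6 arrays left out in turn, between 142 and 144 probe sets had a lower mean, against 47.2% to 54.3% of all. Among the 86 probe sets present on no embryo array (against 37.4% of all), 79 were lower, against 54.4% of all such probe sets, and their median change was small, −0.18.

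**Figure D2:**
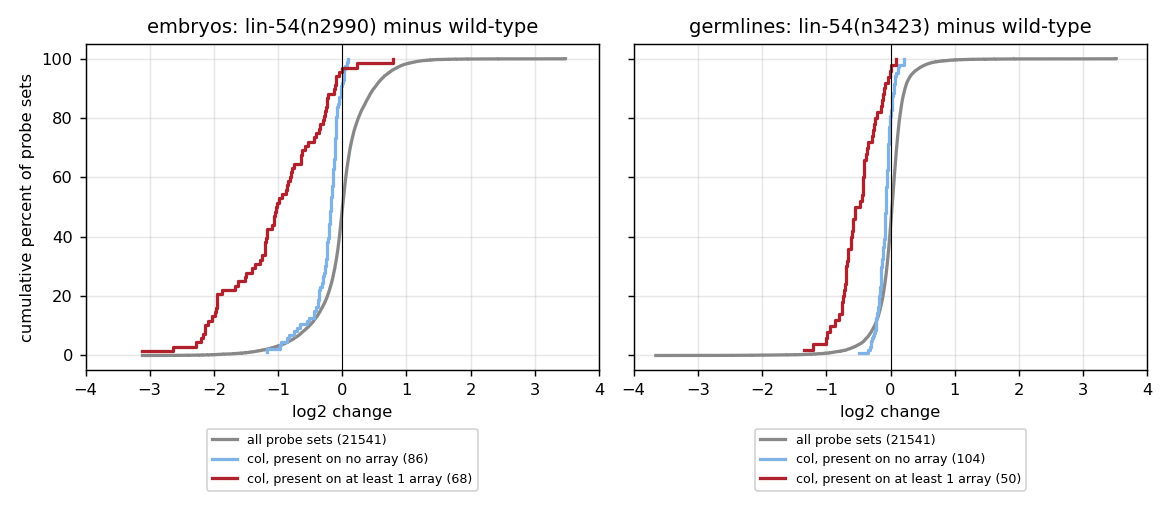
Cumulative percent of probe sets (vertical axis) by log2 change, mutant minus wild-type (horizontal axis), for all 21541 probe sets (gray), *col* probe sets with no present call on the 6 arrays (light blue) and *col* probe sets with at least 1 (red), embryos on the left and germlines on the right. In embryos the red curve crosses 50% at about −1.03 (median of 68) and the light blue at −0.18 (median of 86), while in germlines the medians are −0.51 (50 probe sets) and −0.07 (104).

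*col-74* had the lowest log2 change of the family. Its values of 12.47, 11.85 and 12.80 in wild-type stood against 9.91, 6.41 and 11.45 on mutant arrays 1 to 3. Every mutant array lay below every wild-type array, but the mutant arrays spanned 5.04 log2 units and mutant 2 was by far the lowest. The log2 change was −3.11 with a standard error of 1.24 (adjusted p = 0.188 from limma), and it was not called. *col-165* had the same shape, with 12.33, 11.77 and 12.64 in wild-type and 10.02, 7.12 and 11.65 in the mutant (log2 change −2.64, standard error 1.10, adjusted p = 0.202). *col-165* was chosen after its values were seen, as were *col-109*, *col-48*, *col-144*, *col-166* and *col-167*.

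Other members were lower on each mutant array than on the wild-type array of the same number. *col-109* measured 8.86, 8.21 and 9.53 in wild-type and 6.25, 5.57 and 7.96 in the mutant on 1 probe set (log2 change −2.27, standard error 0.66), and its other probe set changed by −1.5. *col-48* measured 9.44, 9.18 and 10.12 in wild-type and 7.19, 6.55 and 8.91 in the mutant (−2.03, standard error 0.62). Neither gene's probe sets carry the shared-probe suffix. The 3 _x_at probe sets of *col-144* changed by −2.20 to −1.96, and those of *col-166* and *col-167* by −2.14 to −1.96. *col-117* measured 12.91, 12.07 and 13.50 in wild-type and 10.56, 9.34 and 12.07 in the mutant, where mutant 3 reached wild-type 2, and *col-125* 13.05, 12.36 and 13.62 against 11.33, 10.27 and 12.41. Their log2 changes were −2.17 and −1.67, with standard errors of 0.73 and 0.59. With the replicate number as a block, all of these probe sets were called except those of *col-74* and *col-165* (*col-117*, adjusted p = 0.0553; *col-125*, adjusted p = 0.0526; *col-109*, adjusted p = 0.0518 and 0.0447; limma).

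**Figure D3:**
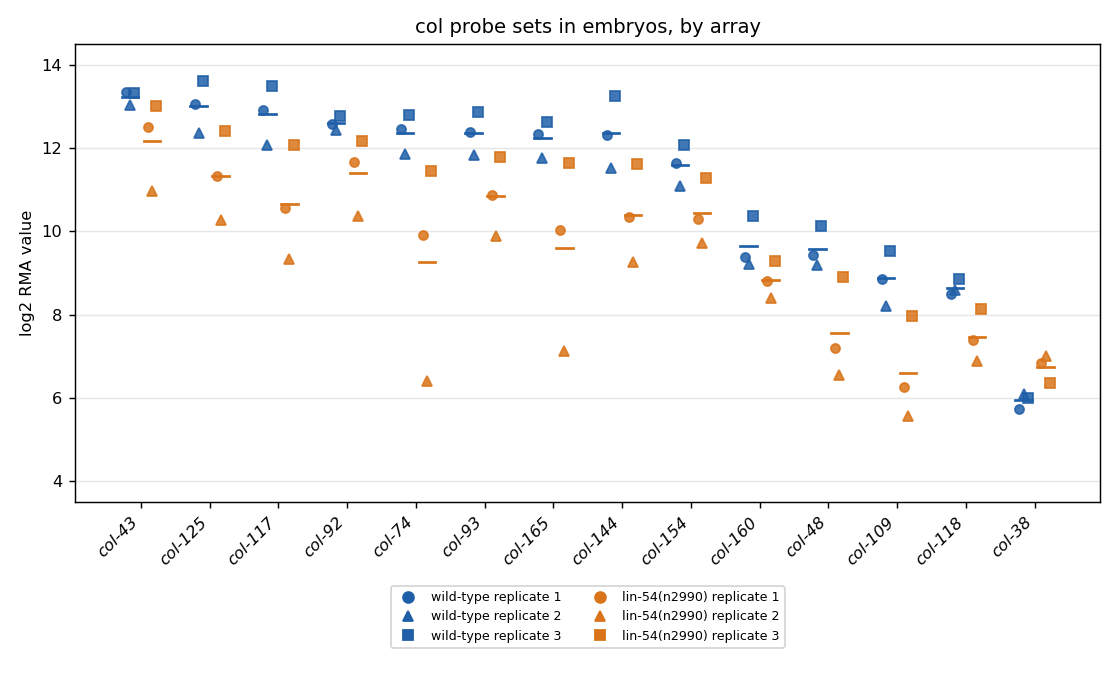
Log2 RMA values (vertical axis) of 14 *col* probe sets on the 3 wild-type (blue) and 3 *lin-54(n2990)* (orange) embryo arrays; the symbol shape gives the replicate number and the bar the mean of 3, and a gene with several probe sets is shown by the one with the highest wild-type mean. Mutant 2 (orange triangles) is the lowest and mutant 3 (orange squares) the highest mutant array for each gene but *col-38*, the only one of the 14 that is higher in the mutant.

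The decrease was ordered in the same way across the arrays in most members with a present call. Among the 68 probe sets with a present call, mutant 2 was the lowest mutant array for 54 and mutant 3 the highest for 61, while wild-type 3 was the highest wild-type array for 48 and wild-type 2 the lowest for 50. Present calls followed the same order, with 47, 46 and 54 members present on wild-type arrays 1 to 3 and 32, 20 and 47 on mutant arrays 1 to 3. Over all probe sets, 11985, 11737 and 11850 were present on wild-type arrays and 11609, 10826 and 11818 on mutant arrays. Mutant 2 thus had the fewest present calls over the whole array as well. The order was weaker among the 86 probe sets with no present call. Wild-type 3 was the highest wild-type array for 30 of these and wild-type 2 the lowest for 33. Mutant 2 was the lowest mutant array for 37 of them and mutant 3 the highest for 53. The range of the mutant arrays was wider than the change itself for 47 of the 68 probe sets, which is the spread that the fit without a block had to cover.

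By that fit, 7 *col* probe sets (4.55%) were called lower, against 1.53% of all probe sets, and 1 was called higher, against 3.38%. At an unadjusted p of at most 0.05 there were 77 of 154 lower (against 12.9% of all) and 2 higher (1.30%, against 12.5%). No *col* probe set reached an adjusted p of 0.05 (lowest adjusted p = 0.109, limma). With the replicate number as a block, 41 probe sets of 31 genes were called lower (26.6%, against 3.62%) and 1 higher (against 4.27%), and 14 probe sets had an adjusted p of at most 0.05 (lowest adjusted p = 0.0388, limma, for *col-166*). The count of 7 also rested on single arrays: it was 0 without wild-type 1, wild-type 3 or mutant 1, 2 without mutant 2, 11 without wild-type 2 and 49 without mutant 3 (against 5.62% of all). With arrays weighted by their quality it was 57, against 6.88%. For the fits that left out an array other than mutant 3, the share of all probe sets was not taken.

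The probe sets called lower were those of *col-154*, *col-118*, *col-13*, *col-89*, *col-160*, *col-131* and *col-172*. They were not the members with the lowest log2 changes. *col-154* (172753_x_at) measured 10.83, 10.48 and 11.20 in wild-type and 9.45, 8.82 and 10.15 in the mutant, with no overlap (log2 change −1.36, standard error 0.36, adjusted p = 0.120, limma). *col-160* (171725_x_at) measured 9.64, 9.28 and 9.97 in wild-type and 8.70, 8.61 and 9.03 in the mutant (−0.85, standard error 0.20, adjusted p = 0.112). *col-13* (172879_x_at) changed by −1.02 (standard error 0.27), and the probe set of its tandem neighbor *col-12*, a nearly identical gene, by −1.09 (standard error 0.36), which was called only with the block. *col-154* and *col-160* were present on all 6 embryo arrays, and *col-13* on 1.

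The other 4 called probe sets, of *col-118*, *col-89*, *col-131* (188365_at) and *col-172*, were present on no embryo array. *col-118* measured 8.49, 8.59 and 8.84 in wild-type and 7.38, 6.88 and 8.13 in the mutant (log2 change −1.18, standard error 0.31). *col-172* measured 8.34, 8.37 and 8.28 against 7.64, 7.19 and 7.90 (−0.75, standard error 0.18), and it was no longer called with the block (adjusted p = 0.0865, limma). *col-89* and *col-131* changed by −0.96 and −0.83. Their values were thus lower in the mutant on arrays with no present call for them. The calls were not all absent, since the wild-type scores of *col-118* and *col-89* were −2 and −1, which include marginal calls.

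The lone probe set called higher was *col-38* (189968_s_at). It measured 5.74, 6.08 and 6.0 in wild-type and 6.85, 7.0 and 6.35 in the mutant, a difference of 0.79 on the log2 scale (standard error 0.19, adjusted p = 0.113, limma). Its calls were present on 2 mutant arrays and on no wild-type array. *col-83* was the other member with all mutant arrays above wild-type (log2 change 0.23), and it was not called.

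Some members with high values, or present on all 6 arrays, were not called by either fit. *col-43* measured 12.49, 10.97 and 13.01 in the mutant, where mutant 3 was just below wild-type 2 (13.02), with a log2 change of −1.07 (standard error 0.51). *col-121* measured 11.56, 11.60 and 11.63 in wild-type and 11.26, 9.31 and 11.63 in the mutant on its higher probe set, so that mutant 2 alone was far from wild-type. *col-76* measured 11.57, 11.40 and 11.40 against 11.05, 9.83 and 11.26. *col-64*, present on all 6 arrays with a wild-type mean of 6.90, changed by −0.11. The last 3 genes were chosen after their values were seen.

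Collagens and partners outside the *col* names were read beside these, in lists chosen with earlier results of these data known. Of 24 probe sets for the body-shape collagens (*dpy*, *sqt*, *rol*, *lon* and *bli* genes), 23 were lower in the mutant, with a median log2 change of −0.48, and none was called, while the block called 1, that of *dpy-13* (11.47, 11.07 and 11.70 against 10.14, 9.07 and 10.97, log2 change −1.35, adjusted p = 0.0710 with the block, limma). *sqt-3* and *dpy-17*, collagens of the first larval cuticle, were the highest of the list and changed by −0.41 to −0.47 and −0.40. All 6 probe sets of the basement membrane collagens *emb-9*, *let-2* and *cle-1* were lower, with a median of −0.96, none called and 1 of *cle-1* called with the block. The 5 probe sets of the cuticlins, non-collagen cuticle proteins, were all lower, from −2.62 for *cut-3* (12.82, 12.19 and 13.01 against 10.65, 7.33 and 12.20) to −0.14, with none called by either fit.

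The machinery that processes collagens changed less. Its 29 probe sets, for genes such as the prolyl 4-hydroxylase subunits *dpy-18* and *phy-2*, the protein disulfide isomerase *pdi-2*, the proprotein protease *bli-4*, the procollagen protease *dpy-31* and the dual oxidase *bli-3*, had a median log2 change of −0.11, with 22 lower, 7 higher and none called by either fit. The 14 probe sets of epidermal transcription factors, such as *elt-1*, *elt-3*, *nhr-23* and *nhr-25*, had a median of −0.12, with none called by either fit.

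Markers of other cell types moved on the same arrays. The median log2 change was −0.51 over 21 probe sets of epidermal genes (20 lower, none called, 7 with the block), −1.39 over 15 of muscle genes (14 lower, 2 called by each fit), −0.61 over 16 of neuronal genes (15 lower, 1 called, 8 with the block) and −0.22 over 7 of intestinal genes (5 lower, 1 called, 2 with the block). Germ cell genes went the other way, with all 12 probe sets higher, a median of 0.85 and 2 called (5 with the block), as did maternal RNAs of early embryos, with 16 of 18 higher, a median of 0.60 and none called (4 with the block). Summed on a linear scale and given as log2, the muscle list was 14.20, 13.91 and 14.22 on wild-type arrays and 12.94, 11.45 and 13.52 on mutant arrays, and the maternal list was 14.28, 14.82 and 14.45 against 15.08, 15.59 and 14.45. The mean log2 value of the *col* probe sets was 7.89, 7.74 and 8.07 on wild-type arrays and 7.27, 6.99 and 7.63 on mutant arrays. On mutant 2, where the *col* mean was lowest, the muscle sum was lowest and the maternal sum highest of the 6 arrays. Wild-type embryo means ran from 6.53 (*vab-10*) to 11.29 (*ajm-1*) in the epidermal list, from 5.06 (*unc-22*) to 11.51 (*mup-2*) in the muscle list, from 6.98 (*unc-17*) to 11.19 (*snb-1*) in the neuronal list and from 6.53 (*elt-2*) to 11.28 (*asp-1*) in the intestinal list. The 6 probe sets of gonadal sheath and distal tip genes had a median change of −0.15, with none called. The part of these lists in the *col* decrease was not tested.

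**Figure D4:**
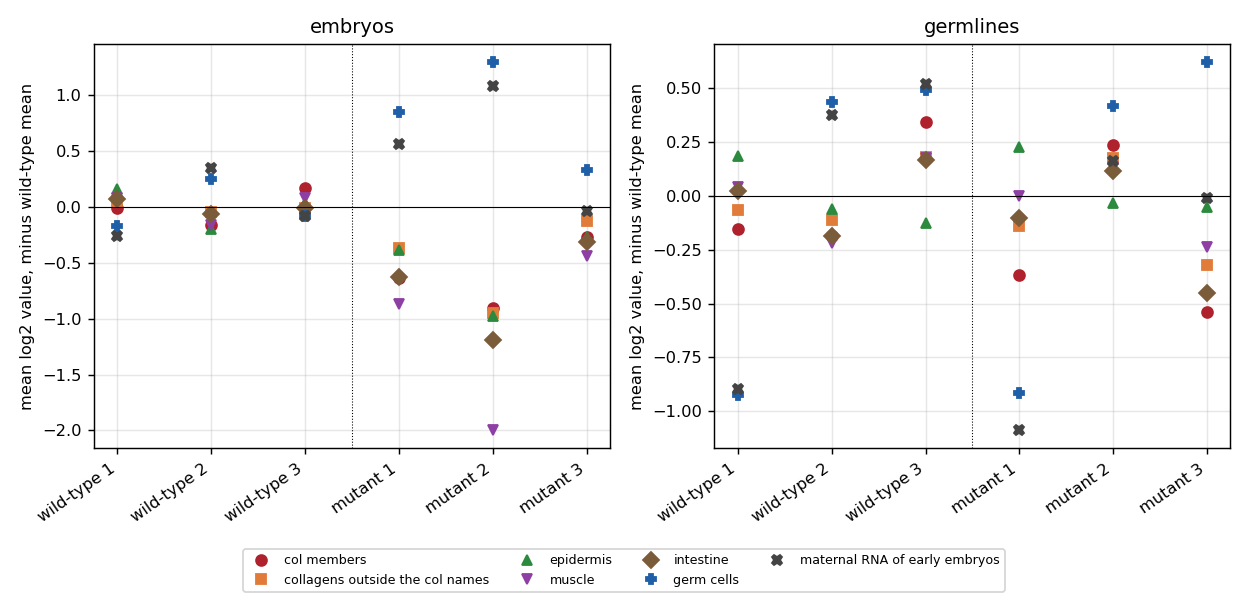
Mean log2 value of the 154 *col* probe sets and of 6 gene lists on each array, minus the mean of the 3 wild-type arrays of that tissue (vertical axis, log2 units), embryos on the left and germlines on the right. In embryos *col*, epidermis, muscle and intestine lie lowest on mutant 2 and germ cell and maternal genes highest there, and in germlines the *col* symbols are highest on wild-type 3 and mutant 2.

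In the germlines, no *col* probe set was called in either direction, by either fit. The background there was 0.371% called lower and 0.0696% called higher (0.984% and 0.297% with the block), and no member had an unadjusted p of at most 0.05, where the background was 1.67% lower and 0.831% higher (lowest adjusted p = 1.00, and 0.650 with the block, limma). The mean was lower in the mutant for 132 of 154 probe sets (85.7%, against 43.4%), with a median log2 change of −0.12 against 0.023. That count depended on single arrays, as did the share of all probe sets. It fell to 103 without wild-type 1 (66.9%, against 35.2% of all) and 101 without wild-type 3 (65.6%, against 50.6%). Without mutant 3 it was 105 (68.2%, against 42.6%). All mutant arrays lay below wild-type for 9 probe sets (5.84%, against 3.15%), all of them present on no germline array, and above for 0 (against 4.02%). Of the 50 probe sets (41 genes) with a present call on at least 1 array (against 44.4% of all), 0 were lower in all 3 pairs, against 18.5% of all probe sets with a present call.

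Among the 50 probe sets with a present call, germline *col* values differed more between arrays of a genotype than between genotypes. Wild-type 3 was the highest wild-type array for 44 of them, and mutant 2 the highest mutant array for 46. Both lay above the other 4 arrays for 43. A present call on any array admits a probe set, so this choice favors members high on the arrays with most present calls. Among the 104 without a present call, wild-type 1 was the highest wild-type array for 76 and wild-type 3 for 25. Mutant 1 was the highest mutant array for 58 of these 104 and mutant 2 for 29. The share over all probe sets was not taken. The number of members present was 16, 35 and 47 on wild-type arrays 1 to 3 and 11, 47 and 16 on mutant arrays 1 to 3. Over all probe sets it was 6347, 7680 and 8209 on wild-type arrays and 5954, 8001 and 7174 on mutant arrays. It was thus highest on wild-type 3 and mutant 2 over the whole array as well. The range within wild-type exceeded the size of the mutant change for 48 of the 50 probe sets, and the range within the mutant for all 50. Over the 50 probe sets, the values of wild-type 3 and mutant 2 had a correlation of 0.99, and those of wild-type 3 and wild-type 1 of 0.66, as a description across probe sets that share their arrays and probes.

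*col-119* had the widest span among the members highest in wild-type germlines. Its _x_at probe set measured 8.02, 9.62 and 11.66 in wild-type and 7.68, 11.83 and 7.63 in the mutant, and its _s_at probe set 7.79, 8.89 and 11.18 against 7.05, 11.12 and 7.07. The 2 probe sets thus gave the same order of arrays, with log2 changes of −0.72 and −0.87 and standard errors of 1.47 and 1.41. *col-160* (171725_x_at) had the highest wild-type mean, with 9.23, 9.45 and 11.15 against 8.84, 11.15 and 8.44 (log2 change −0.47, standard error 0.88). *col-101*, present on all 3 wild-type arrays, measured 8.72, 8.69 and 10.36 against 8.04, 10.50 and 7.37. *col-106*, with 7.51, 8.07 and 9.82 against 6.81, 9.65 and 5.98, had a log2 change of −0.98 (standard error 1.10).

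Members detected in both tissues included some of the highest germline values. *col-92*, *col-93*, *col-154* and *col-13* were present on all 3 wild-type germline arrays on at least 1 probe set, with wild-type means of 8.65 to 9.20 there and log2 changes of −0.71 to −0.15. *col-93* (171770_x_at) measured 7.98, 8.96 and 10.65 in wild-type and 7.57, 10.69 and 7.21 in the mutant. *col-117* and *col-125*, among the highest in both tissues, measured 8.59, 9.24 and 11.04 against 8.49, 10.67 and 8.37, and 8.74, 9.05 and 10.45 against 8.52, 10.23 and 8.22. Other members present on all 3 wild-type arrays spanned less, such as *col-64*, between 6.01 and 6.34 on all 6 arrays, and *col-73*, between 6.22 and 7.59, both chosen after their values were seen.

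Among the 50 germline probe sets with a present call, that of *col-181* had the widest range within each genotype. *col-181* measured 6.45, 8.63 and 10.95 in wild-type germlines and 5.62, 10.31 and 6.06 in the mutant, a range of 4.50 within wild-type and 4.69 within the mutant, and it had the deepest germline change of the family, −1.35, with a standard error of 1.66. *col-184* measured 6.77, 7.95 and 10.15 against 5.42, 9.67 and 6.17, and *col-178* 6.27, 8.12 and 10.28 against 5.85, 9.81 and 6.16. These 3 genes, chosen after their values were seen, were present on 0 of 6 embryo arrays. With standard errors of this size, a genotype difference of the size seen in embryos could not be told from the spread of these germline arrays.

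**Figure D5:**
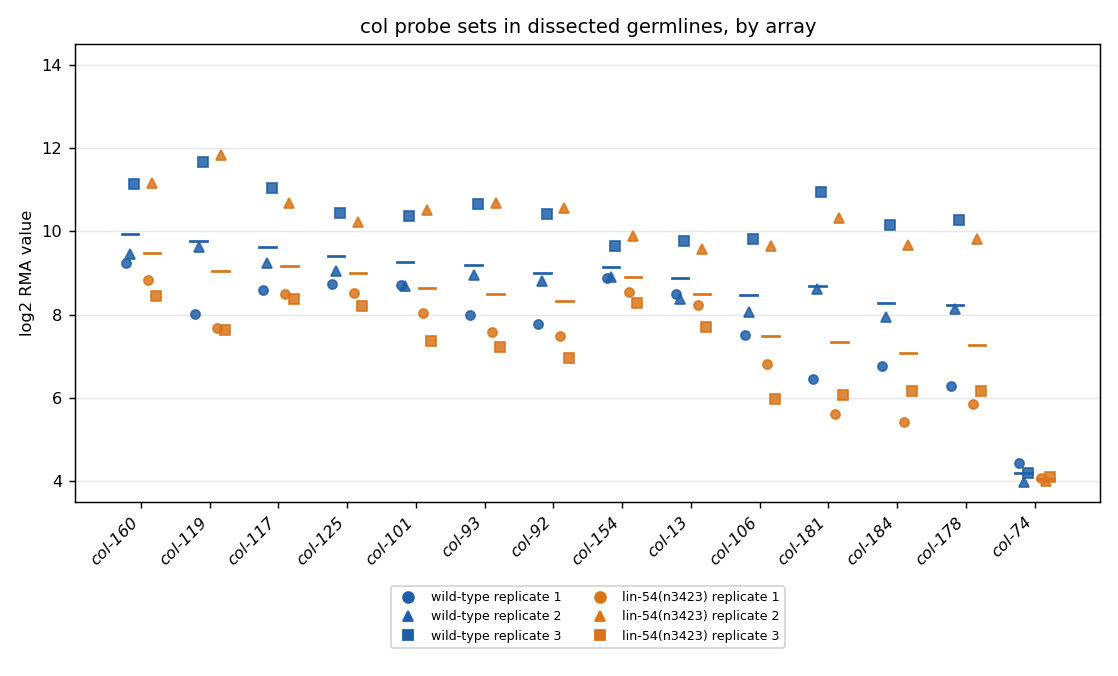
Log2 RMA values (vertical axis) of 14 *col* probe sets on the 3 wild-type (blue) and 3 *lin-54(n3423)* (orange) germline arrays; the symbol shape gives the replicate number and the bar the mean of 3, and a gene with several probe sets is shown by the one with the highest wild-type mean. Wild-type 3 (blue squares) and mutant 2 (orange triangles) stand above the other arrays for 13 genes, whereas *col-74* lies near 4 on all arrays.

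Other gene lists were compared on these arrays. Among collagens outside the *col* names, *sqt-3* (172820_x_at) measured 8.81, 9.92 and 11.13 in wild-type and 8.59, 10.77 and 8.15 in the mutant, and *dpy-4* 7.25, 7.92 and 9.20 against 6.87, 9.02 and 7.02, again highest on wild-type 3 and mutant 2; none of the 24 probe sets was called. *sqt-3* was named for its array order, after its values were seen, as was *dpy-4*. The *col* sums (log2 of the linear sum) were 14.06, 14.28 and 15.58 in wild-type and 13.81, 15.47 and 13.57 in the mutant. The intestinal list had sums of 10.15, 9.90 and 10.67 against 9.94, 10.47 and 9.57, and the muscle list of 10.50, 10.21 and 10.81 against 10.47, 10.71 and 10.18, both highest on the same arrays within each genotype, with 2 of 7 and 2 of 15 probe sets present on all 3 wild-type arrays. The epidermal list did not follow, with 10.53, 10.24 and 10.19 against 10.56, 10.30 and 10.28 and 3 of 21 probe sets present on all 3 wild-type arrays. In wild-type germlines the epidermal list ran from 4.05 (*che-14*) to 6.98 (*ajm-1*), the muscle list from 3.82 to 7.78 (*lev-11* at both ends) and the intestinal list from 5.13 (*elt-2*) to 8.27 (*act-5*). The germ cell and maternal lists had their lowest sums on the arrays numbered 1, and none of their 12 and 18 probe sets was called, nor any of the 16 of neuronal genes. All 18 maternal probe sets had a lower mean in the mutant (against 43.4% of all probe sets), with a median log2 change of −0.31. Of the 12 germ cell probe sets, 4 were lower and 8 higher, with a median of 0.034. The sheath gene *inx-8* was called lower, with 10.01, 9.59 and 10.02 against 7.56, 7.09 and 6.97 (log2 change −2.67, adjusted p = 0.214, limma), and the other 5 probe sets of the sheath list were not called. The part of these lists in the *col* values was not tested.

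Of the genes that process collagen, *pdi-2* was called in the germlines. Its probe set 172947_at measured 6.36, 6.58 and 6.76 in wild-type and 5.15, 5.67 and 4.85 in the mutant, with no overlap (log2 change −1.34, standard error 0.24, adjusted p = 0.841, limma), and its other probe set changed by −0.74 and was not called. *pdi-2* encodes the disulfide isomerase that is also a subunit of the collagen prolyl 4-hydroxylase. The other 27 probe sets of the list were not called, and in embryos neither *pdi-2* probe set was. The 6 probe sets of the basement membrane collagens, the 5 of the cuticlins and the 14 of epidermal transcription factors had median germline changes of −0.0026, −0.037 and 0.081, with none called.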

How the data were processed

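RNA of 12 samples was measured on Affymetrix *C. elegans* genome arrays, 1 array per sample. The deposited tables hold log2 RMA values, which the authors computed with rma (affy package), for embryos and germlines apart, with probe sets tied to genes by WormBase WS190. They also hold detection calls from the Affymetrix software and the authors' own fold changes and p-values, which were not used. The study's methods call the 3 samples of a group biological replicates. The number of arrays limits the precision.

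Mutant and wild-type arrays were compared in R 4.3.3 with limma 3.58.1 (lmFit and eBayes) over all 21541 probe sets of a tissue, and the fit was tested on simulated data. Figures were drawn with Python 3.11.15 and matplotlib 3.10.9. Over all probe sets, deviations from the genotype mean correlated between same-numbered arrays at 0.246, 0.362 and 0.276 in embryos and 0.834, 0.363 and 0.392 in germlines. The sample titles give only the number, and the methods do not say that same-numbered arrays were prepared together. The pairing was thus inferred from these correlations, and the number was added as a block where stated. Results with the block rest on that assumption.

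The family was set by the symbol rule, which no measured value entered. The gene lists and the rules for naming members were chosen with earlier results of these data known. Named were *lin-54*, per tissue up to 10 called *col* probe sets in each direction, the 6 highest in wild-type, the 10 highest of those present on all 3 wild-type germline arrays, called genes of the pathway lists and the ends of marker lists. No *col* gene was called in both tissues, and other genes were named after their values were seen. Of 138 symbols, 137 matched RefSeq. Sequence features were not analysed here.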

Additional observations from a re-analysis of the deposited data

How the results depend on the processing

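The 7 *col* probe sets called lower in embryos became 0 by adjusted p, 14 without a fold threshold, 3 at a fold change of at least 2, 41 with the replicate block, 3 with the probe sets of a gene averaged and 57 with array weights, and 0 to 49 with 1 array left out. The cause of these differences was not tested. The 1 called higher became 0 by adjusted p, at a fold change of at least 2 and among probe sets without a suffix, and 0 to 1 with 1 array left out. By the other settings, 8 were called lower at a mean log2 value of at least 6, 5 among probe sets without a suffix, 9 with an intensity trend and robust prior, 9 after median centring and 7 after quantile normalization. In germlines 0 were called in all of these fits, and also with the arrays numbered 1 as a batch and with wild-type 3 and mutant 2 both left out, which were chosen after the data were seen. The block changed no germline call of a *col* probe set. For the embryo calls, the share over all probe sets was taken only for the fits without a block, with the block, with array weights and without mutant 3. The embryo counts at other settings describe the members alone.

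The 144 embryo probe sets with a lower mean became 128 after median centring (83.1%, against 31.6% of all), which shifted the median of all probe sets to 0.10. After quantile normalization the count was 136 (88.3%, against 44.6% of all). With 1 array left out it ranged from 142 to 144. The 132 in germlines ranged from 101 to 138 with 1 array left out. Without wild-type 3 and mutant 2 the count was 126 (81.8%, against 45.8% of all). These counts were added after the data were seen.

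No named embryo change reversed its sign. In germlines, 13 named changes were followed: without wild-type 3, 11 reversed, and without mutant 3, 6 reversed. The ranges with 1 array left out were −1.55 to 0.014 for *col-101*, −1.20 to 0.26 for *col-117*, −2.11 to 0.23 and −2.23 to 0.077 for *col-119*, −1.04 to 0.097 for *col-125*, −0.72 to 0.15 for *col-13*, −0.51 to 0.15 for *col-154*, −1.31 to 0.13 for *col-160*, −1.77 to 0.055 and −1.75 to 0.034 for *col-92*, and −1.80 to 0.022 and −1.74 to 0.096 for *col-93*, while *col-106* stayed between −2.07 and −0.23.

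Wild-type embryos had 30 *col* genes detected by the score. A present call on at least 2 of 3 arrays gave 37 (26.8%, against 52.8% of all genes). A present call on all 3 gave 31 (22.5%, against 48.5%). A mean log2 value of at least 7 gave 79 (57.2%, against 56.9%). By that last rule the share of the family in embryos was not below that of all genes. Wild-type germlines had 13 by the score. These rules gave 28 (20.3%, against 35.4%), 14 (10.1%, against 26.8%) and 43 (31.2%, against 35.4%) there. Probe sets that share probes, and arrays that differ within a genotype, limit what single members show.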
